A study of Mus musculus with 194 samples.

Results

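S100a4, S100a6, S100a10, S100a11 and S100a13, the galectins Lgals1 and Lgals3, the annexins Anxa1 and Anxa2, and the intermediate filament gene Vim were followed in single cells of known ancestry. These 10 genes of the 23420 names in the deposited table were chosen by values measured in these same cells, namely their levels, their co-expression, their likeness among cells of a lineage and their relation to Gzmb, so those 4 measures are given here as descriptions without a test. Single CD8+ T-cells and single L1210 cells were each grown for generations in a microfluidic trap array, released one by one and sequenced with Smart-Seq2, a protocol that makes 1 library per cell. The CD8+ T-cells came from C57BL/6J mice and had been activated in vitro for 30 h with plate-bound anti-CD3 at 5 μg/mL and soluble anti-CD28 at 2 μg/mL, then grown on the device in RPMI medium with 10% FBS, 55 μM 2-mercaptoethanol and 100 U/mL IL2. L1210 is a mouse lymphocytic leukaemia line of DBA subline 212 and was grown in RPMI medium with 10% FBS, with neither activation nor IL2. The labels name neither the mouse nor the culture of a cell and give no age.

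Of 194 libraries, 97 CD8 cells in 34 lineages and 81 L1210 cells in 26 lineages were not doublets and had at least 1000 detected genes, meaning genes above 0 TPM (transcripts among 1000000 of a library, a level per transcript length that can be compared between genes). The 9 CD8 and 7 L1210 libraries left out were 4 and 2 doublets and 5 of each type with fewer detected genes. A lineage holds the recovered descendants of 1 founder, that is sisters and cousins, and it was the unit of comparison. Detected genes ranged from 2639 to 10905 in CD8 cells and from 1610 to 10454 in L1210 cells, with medians of 6862 and 8402. All 8 T-cell markers passed the expression filter in CD8 cells, where their summed level was 1080 to 6829 TPM. In L1210 cells 4 of the 8 passed, and the sum of all 8 was 0 to 130.3 TPM (median 17.9), above 0 in 64 cells. All 8 B-lineage markers passed it in L1210 cells (sum 485 to 4863 TPM), whereas 6 of the 8 were at 0 in every CD8 cell. The other 2, Cd79a and Cd79b, passed it in CD8 cells, where the sum was 0 to 282.6 TPM (median 2.67), above 0 in 49 cells. The TPM do not keep the number of reads, and the study's quality metrics for each library were not used. The depth behind a value was thus not taken into account, and a value of 0 is described as listed at 0.

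S100 proteins are small calcium-binding proteins of the EF-hand type that dimerize and act on cytoskeletal and membrane partners. S100A10 is the exception that no longer needs calcium and joins annexin A2 in a complex under the plasma membrane, S100A4 binds non-muscle myosin, annexins bind phospholipid membranes when calcium rises, galectins bind sugar chains on glycoproteins, and vimentin builds intermediate filaments. In T-cells, transcripts of this group are known for their rise from the naive to the activated, effector and memory states. Granzyme B, the product of Gzmb, is a protease that cytotoxic cells release into their targets.

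All 5 S100 members lie on mouse chromosome 3 (GRCm38, GENCODE M21). S100a13 lies at chr3:90514435-90524581, S100a4 at chr3:90603771-90606045 and S100a6 at chr3:90612882-90624181, all on the plus strand. S100a4 and S100a6 are 6.84 kb apart, with S100a5 between them, and this gene was above 0 in only 3 CD8 cells and 1 L1210 cell. S100a11 (chr3:93520488-93526287) and S100a10 (chr3:93555080-93564643) form a second group, 28.8 kb apart. S100a1, on the minus strand, starts 42 bases from S100a13, and the libraries do not keep the strand, so reads at that border cannot be told apart.

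The RefSeq table (GRCm38.p6) held start sites of 8 members. The 250 bases before the start are shown for S100a4 and S100a6, neighbours that varied together, and for S100a11 and Anxa2, which were found in CD8 cells and hardly in L1210 cells. Capitals mark, on either strand, the TATA box TATAAA, the CCAAT box CCAAT, the GC box GGGCGG, the AP-1 site TGANTCA and the RUNX site TGTGGT, and none of the marked stretches overlapped another motif. The windows are chr3:90603520-90603769, chr3:90612644-90612893, chr3:93520246-93520495 and chr9:69453433-69453682, all on the plus strand.
S100a4: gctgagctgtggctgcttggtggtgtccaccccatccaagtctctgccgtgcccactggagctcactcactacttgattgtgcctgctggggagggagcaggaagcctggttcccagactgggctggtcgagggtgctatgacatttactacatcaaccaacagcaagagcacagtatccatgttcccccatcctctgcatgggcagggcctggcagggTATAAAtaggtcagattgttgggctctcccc
S100a6: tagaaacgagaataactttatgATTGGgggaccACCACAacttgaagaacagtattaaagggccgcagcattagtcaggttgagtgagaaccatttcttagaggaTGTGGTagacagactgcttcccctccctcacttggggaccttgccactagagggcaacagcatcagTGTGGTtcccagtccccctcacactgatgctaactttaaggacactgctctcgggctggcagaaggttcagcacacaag
S100a11: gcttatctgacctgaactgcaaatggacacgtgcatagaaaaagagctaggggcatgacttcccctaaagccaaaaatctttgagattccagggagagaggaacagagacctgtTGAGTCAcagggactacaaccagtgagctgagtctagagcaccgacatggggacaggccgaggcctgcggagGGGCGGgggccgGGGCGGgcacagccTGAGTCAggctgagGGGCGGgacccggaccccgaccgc
Anxa2: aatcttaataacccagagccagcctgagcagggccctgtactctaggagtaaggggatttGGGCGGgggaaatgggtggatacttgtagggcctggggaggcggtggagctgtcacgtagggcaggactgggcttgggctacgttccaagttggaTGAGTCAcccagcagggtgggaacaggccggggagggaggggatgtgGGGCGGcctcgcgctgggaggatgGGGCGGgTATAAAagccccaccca
TATAAA stood at position -31 from the start of S100a4, and S100a6 had no TATAAA but 3 copies of TGTGGT. S100a11 and Anxa2 each held 3 copies of GGGCGG as well as TGANTCA, with 2 copies in S100a11 and 1 in Anxa2. Lgals3, also found in CD8 cells and in no L1210 cell, had a window that is not shown. That window held 1 copy of GGGCGG and no TGANTCA, so TGANTCA was not shared by all such members. Among the 8 member windows, 3 held GGGCGG and 2 held TGANTCA. Over all 32851 windows of this length in the table, 12.4% held TATAAA, 33.8% CCAAT, 32.7% GGGCGG, 6.75% TGANTCA and 14% TGTGGT. These matches describe the letters of the windows and no binding was measured.

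S100a10, the annexin A2 partner, was the S100 gene with the highest median level in CD8 cells and was nearly absent from L1210 cells. It was above 0 in 97 of 97 CD8 cells, with a lowest value of 10.5 TPM, a median of 295.9 TPM and a highest of 2725 TPM. In L1210 cells it was above 0 in 1 of 81, at 15.3 TPM. S100a11, another annexin-binding S100 gene, was above 0 in 90 CD8 cells (median 79.8 TPM, highest 496.8 TPM) and in 3 L1210 cells, at most at 18.2 TPM. For both genes each of the 34 CD8 lineage means was above each of the 26 L1210 lineage means. The share of all genes separated in this way was not counted, and levels took part in the choice of these genes.

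Anxa2 followed the same division between the cell types. It was above 0 in 89 CD8 cells, with a median of 107.5 TPM and a highest of 1158 TPM. The only L1210 cell with Anxa2 was L1210_8, at 156.6 TPM. That library also stood apart in other ways, being the only L1210 cell with Lgals1 listed at 0, with 2718 detected genes and with 79.3% of its TPM in Rn45s, a ribosomal RNA precursor, and its sister L1210_84 held Lgals1 at 773.7 TPM and no Anxa2. All 8 T-cell markers were at 0 in L1210_8. Anxa1 was listed at 0 in every L1210 cell and above 0 in 2 CD8 cells, at most at 9.01 TPM.

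S100a4 and S100a6 went the other way, with higher levels in the leukaemia line. S100a4 was above 0 in 44 of 97 CD8 cells, with a median of 0 and a highest of 916.7 TPM, and in 76 of 81 L1210 cells, with a median of 126 TPM and a highest of 1392 TPM. S100a6 was above 0 in 83 CD8 cells, with a median of 105.1 TPM and a highest of 1763 TPM, and in 81 of 81 L1210 cells, with a median of 519.6 TPM and a highest of 1334 TPM. The ranges of the cell types overlapped for both genes. S100a13, an S100 gene linked to the release of growth factors that lack a signal sequence, was found in most cells of both types, in 90 CD8 cells (median 56.6 TPM) and in 67 L1210 cells (median 30.3 TPM).

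Vim and Lgals1 were the most abundant members in CD8 cells. Vim ranged from 63.5 to 3881 TPM there, with a median of 1346 TPM, and its median in L1210 cells was 514.7 TPM. Lgals1 ranged from 9.8 to 5543 TPM in CD8 cells, with a median of 676.1 TPM, and its median in L1210 cells was 1221 TPM. Lgals3 was above 0 in 42 CD8 cells, at most at 549.2 TPM, and listed at 0 in every L1210 cell.

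**Figure D1:**
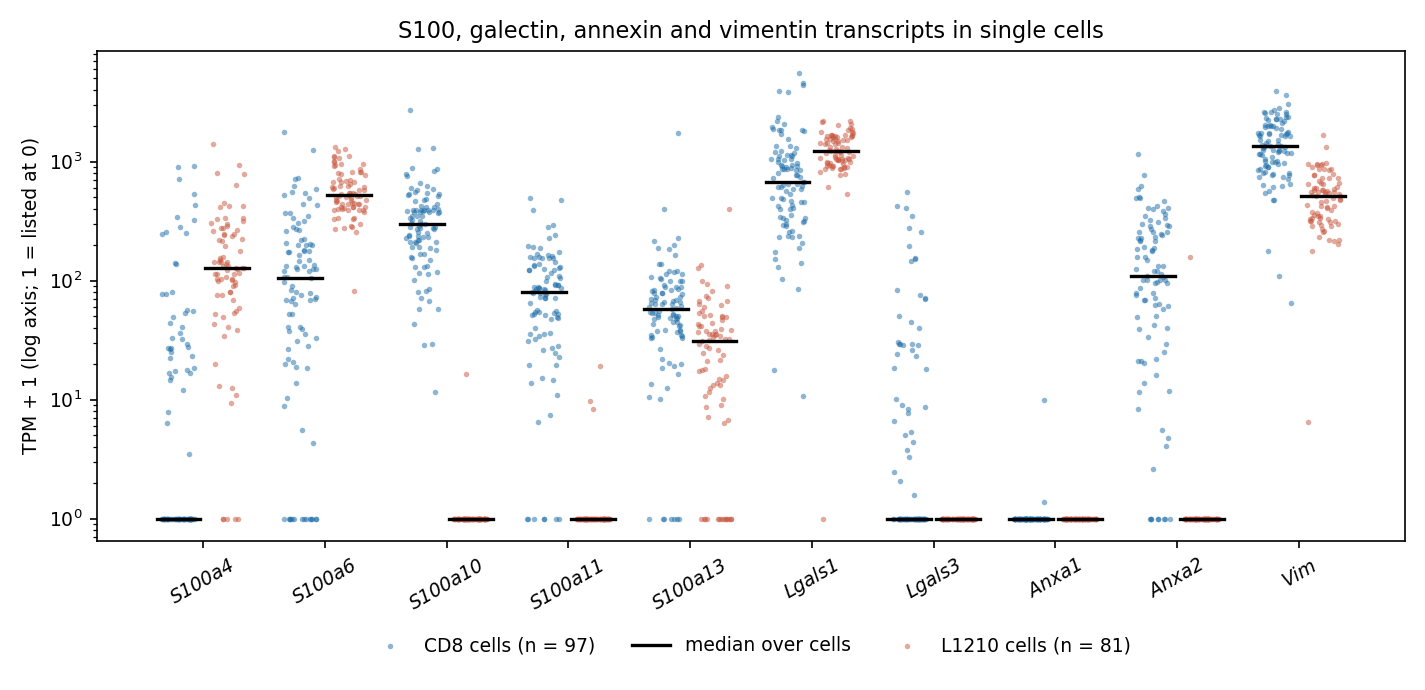
TPM + 1 on a log axis for the 10 genes, with 1 point per cell, 97 CD8 cells in blue and 81 L1210 cells in red, and black lines at the medians. S100a10, S100a11, Lgals3 and Anxa2 lie at 0 in nearly all L1210 cells, S100a4 and S100a6 have the higher medians in L1210 cells, and Anxa1 is near 0 in both.

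On the scale ln(TPM + 1), lineage means in CD8 cells descended from Vim (7.11 ± 0.673, SD, n = 34) through Lgals1 (6.51 ± 0.843), S100a10 (5.62 ± 0.844), Anxa2 (4.48 ± 1.33), S100a6 (4.16 ± 1.58), S100a11 (4.08 ± 1.02) and S100a13 (3.84 ± 0.886) to S100a4 (1.82 ± 1.92) and Lgals3 (1.46 ± 1.68). Between neighbours from Vim to Lgals3, the mean difference exceeded its SD over lineages for Lgals1 over S100a10 (higher in 31 of 34 lineages) and S100a13 over S100a4 (28 of 34). The other neighbours differed by less than that SD, with the first higher in 26 lineages for Vim over Lgals1, 26 for S100a10 over Anxa2, 19 for Anxa2 over S100a6, 17 for S100a6 over S100a11, 22 for S100a11 over S100a13 and 14 for S100a4 over Lgals3. In L1210 cells the order was Lgals1 (6.98 ± 0.782, n = 26), S100a6 (6.28 ± 0.353), Vim (6.19 ± 0.427), S100a4 (4.63 ± 1.00) and S100a13 (2.95 ± 1.16), and there S100a6 over Vim, higher in 15 of 26 lineages, was the pair within its SD. S100a6 had an SD over lineages of 1.58 in CD8 cells and 0.353 in L1210 cells. The 10 genes together took a median of 0.315% of the TPM of a CD8 cell and 0.256% of an L1210 cell.

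The study's methods name several mice, but the labels tie no cell to a mouse or culture. The difference between the types was therefore not tested, and a gene was called when the mean over lineages differed by more than ln(4). S100a10 (CD8 minus L1210 5.57), Anxa2 (4.38), S100a11 (4.01) and Lgals3, listed at 0 in L1210 cells, were called higher in CD8 cells. Of the 11373 genes that passed the filter in either type, 3.17% were called higher in CD8 cells, and these 4 stand among 9 members that passed. Lgals3, with a mean difference of 1.46, was close to the threshold and was not called with a pseudocount of 10 TPM (0.67) or with the median over cells, which was 0 in both types. S100a4 (-2.81) and S100a6 (-2.12) were called lower in CD8 cells, a call made for 10.3% of genes. S100a13 (0.89), Vim (0.92) and Lgals1 (-0.47) were not called. The median over all genes was -0.41, beside the lower number of detected genes in CD8 cells, whose part was not tested, and the members' median was 0.92 over those that passed. What part strain, activation, IL2 and cell type have in these differences cannot be told apart.

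Of the other S100, annexin and galectin genes, listed with earlier results of these data known, those called were S100a3, Anxa6 and Anxa4. Only 2 of the other S100 genes passed the filter in either type. Of the 11 other S100 genes, 6 were at 0 in every CD8 cell and 7 in every L1210 cell, including the myeloid pair S100a8 and S100a9 in both. S100a3 was above 0 in 50 L1210 and 5 CD8 cells and was called lower in CD8 cells (-1.82), and S100a1 was above 0 in 49 L1210 and 26 CD8 cells (-1.19, not called). Among 6 other annexins that passed the filter, Anxa6 was called higher (3.36) and Anxa4 lower in CD8 cells (-1.61). Over all genes these calls were made for 3.17% and 10.3%. None of 3 other galectins was called, and Lgals9 had medians of 259.1 TPM in CD8 and 510.6 TPM in L1210 cells. Of 16 actin and membrane cytoskeleton genes, 1 was called higher and none lower in CD8 cells.

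S100a4 differed much less among related than among unrelated CD8 cells. The mean absolute difference in ln(TPM + 1) was 0.889 between sisters (43 pairs), 1.14 between cousins (72 pairs) and 2.36 between unrelated cells (4541 pairs). The difference of related pairs relative to unrelated pairs was thus -55.9%, rank 5 of 9997 genes, close to Gzmb at -55.6% and rank 7. A more negative percentage means that relatives differed less when set against unrelated cells, and it does not rank the absolute difference between relatives. Of the variance of S100a4, 66.4% lay between lineages, against 73.6% for Gzmb and a median of 9.02% over all genes. These values took part in the choice of the gene and carry no test.

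Whole CD8 lineages often shared the presence or the absence of S100a4. Of 27 CD8 lineages with at least 2 cells, 9 had S100a4 at 0 in all cells, 9 had it above 0 in all cells and 9 were mixed. Of 43 sister pairs, 16 had it in both sisters, 20 in neither and 7 in 1 sister only. In the 4 cells of the lineage of CD8_1 it was 252.9, 324.4, 713.6 and 916.7 TPM, the highest lineage mean of all. The lineages with S100a4 in all cells had a median of 7578 detected genes per cell (5839 to 9348) and those with none 6100 (4405 to 7532), and the part of detection in this pattern was not tested. Over cells, Pearson's r of S100a4 with the number of detected genes was 0.32 in CD8 and 0.41 in L1210 cells. With ln(TPM + 1) taken as residuals on detected genes, the value of S100a4 was -45.8%.

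Lgals1, Lgals3, S100a6 and Vim came next in CD8 cells. Related relative to unrelated pairs had -39.3% for Lgals1 (rank 72), -35.6% for Lgals3 (rank 125), -33.0% for S100a6 (rank 168) and -28.4% for Vim (rank 356). Lgals3 resembled S100a4 in its many zeros but not in its sharing, with 14 of 27 lineages mixed and 16 of 43 sister pairs unlike. Relative to unrelated pairs the reduction was smaller for S100a10 (-21.0%), S100a11 (-19.3%) and Anxa2 (-18.3%). In absolute terms relatives differed less in S100a10 (mean 0.727) than in S100a4 (1.04), since unrelated cells also differed less in S100a10. S100a13 had -1.15%, rank 7610, with a sign that turned under 4 alternative settings. All 9 members that passed the filter were nearer in related pairs, as were 80.2% of all genes, and their median of -28.4% stands beside -7.77% over all genes.

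In L1210 cells Lgals1 and S100a6 were the members most alike within lineages. The values were -43.3% for Lgals1 (rank 23 of 10536) and -38.2% for S100a6 (rank 65), followed by Vim (-19.9%), S100a4 (-17.5%) and S100a13 (-14.5%). Lgals1 had -34.0% without the cell L1210_8 and -23.7% with sisters only. All 5 passing members were nearer in related pairs, against 83.1% of all genes, with a median of -19.9% beside -8.45%. In S100a4, 20.2% of the variance lay between L1210 lineages, and the difference from CD8 cells was not tested.

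**Figure D2:**
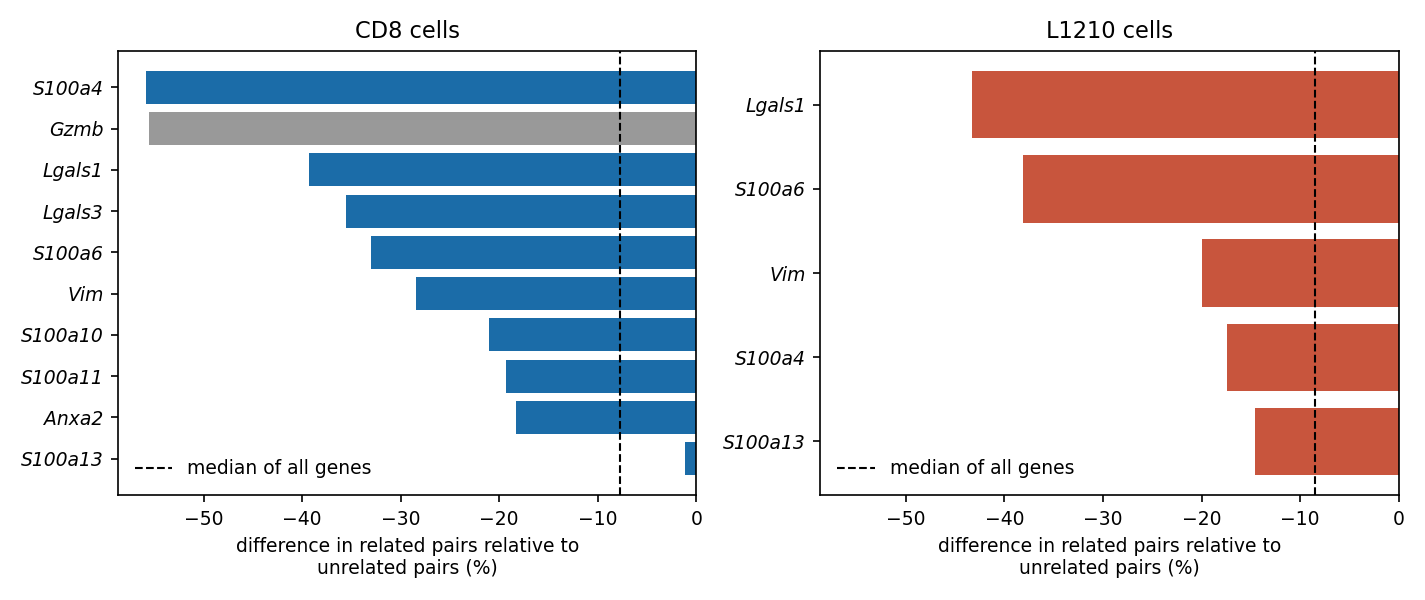
Mean absolute difference of ln(TPM + 1) in related pairs relative to unrelated pairs, in percent, for the members that passed the filter (colour) and Gzmb (grey), with CD8 cells on the left and L1210 cells on the right. The dashed line is the median of all genes (-7.77% and -8.45%), and in CD8 cells only S100a13 lies to its right.

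S100a4 and S100a6, the chromosome 3 neighbours, had the highest Spearman's rho over lineage means of any pair of members in CD8 cells. By other measures S100a4 and S100a6 were not first, since Pearson's r was higher for S100a10 with S100a13 (0.70) and rho over single cells for S100a10 with Lgals1 (0.474, against 0.466). Over the means of 34 CD8 lineages Spearman's rho was 0.72 (jackknife SE 0.0838) and Pearson's r 0.68, and rho was 0.72 without the 2 lineages farthest from the median. Over 26 L1210 lineages rho was 0.68 (SE 0.13), r was 0.70, and rho was 0.60 without the 2 farthest and 0.63 without the cell L1210_8. Each of the 44 CD8 cells with S100a4 also had S100a6, 39 had S100a6 alone and 14 neither. In lineages with S100a4 in all cells the lineage means of S100a6 were 55.8 to 428.9 TPM (median 152.5), and in those without it 3.74 to 194.9 TPM (median 37.6).

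Within lineages the values were lower. Over 90 CD8 cells taken as deviations from their lineage mean, rho of S100a4 and S100a6 was -0.08, and over 79 L1210 cells it was 0.22. The cells of a lineage share their founder and medium. Of 9988 genes outside the group, 73 had a rho to S100a4 above 0.5 over CD8 lineages (0.731%), and of 10531 genes in L1210 cells 301 did (2.86%). These counts leave out the members, of which S100a6 passed 0.5 in CD8 lineages and S100a6 and Lgals1 (0.63) in L1210 lineages.

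Other pairs in CD8 lineages were S100a10 with S100a13 (rho 0.61), Lgals1 with Lgals3 (0.51), S100a6 with Lgals1 (0.50) and S100a6 with S100a10 (0.45). S100a10 and Anxa2, whose products form a complex, had a rho of 0.04 over lineage means and 0.36 within lineages. S100a10 with Lgals1 had 0.45 over lineage means and 0.53 within lineages, the highest value between members within lineages. S100a10 with Vim had -0.32 and -0.37. Over cells, S100a10 and Lgals1 went down with the number of detected genes (r -0.18 and -0.23) and Vim went up with it (0.30), and the part of detection in these relations was not tested. Among L1210 lineages, Lgals1 also went with S100a4 (0.63), S100a6 (0.56) and Vim (0.55). Without the cell L1210_8 these were 0.53, 0.38 and 0.40.

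**Figure D3:**
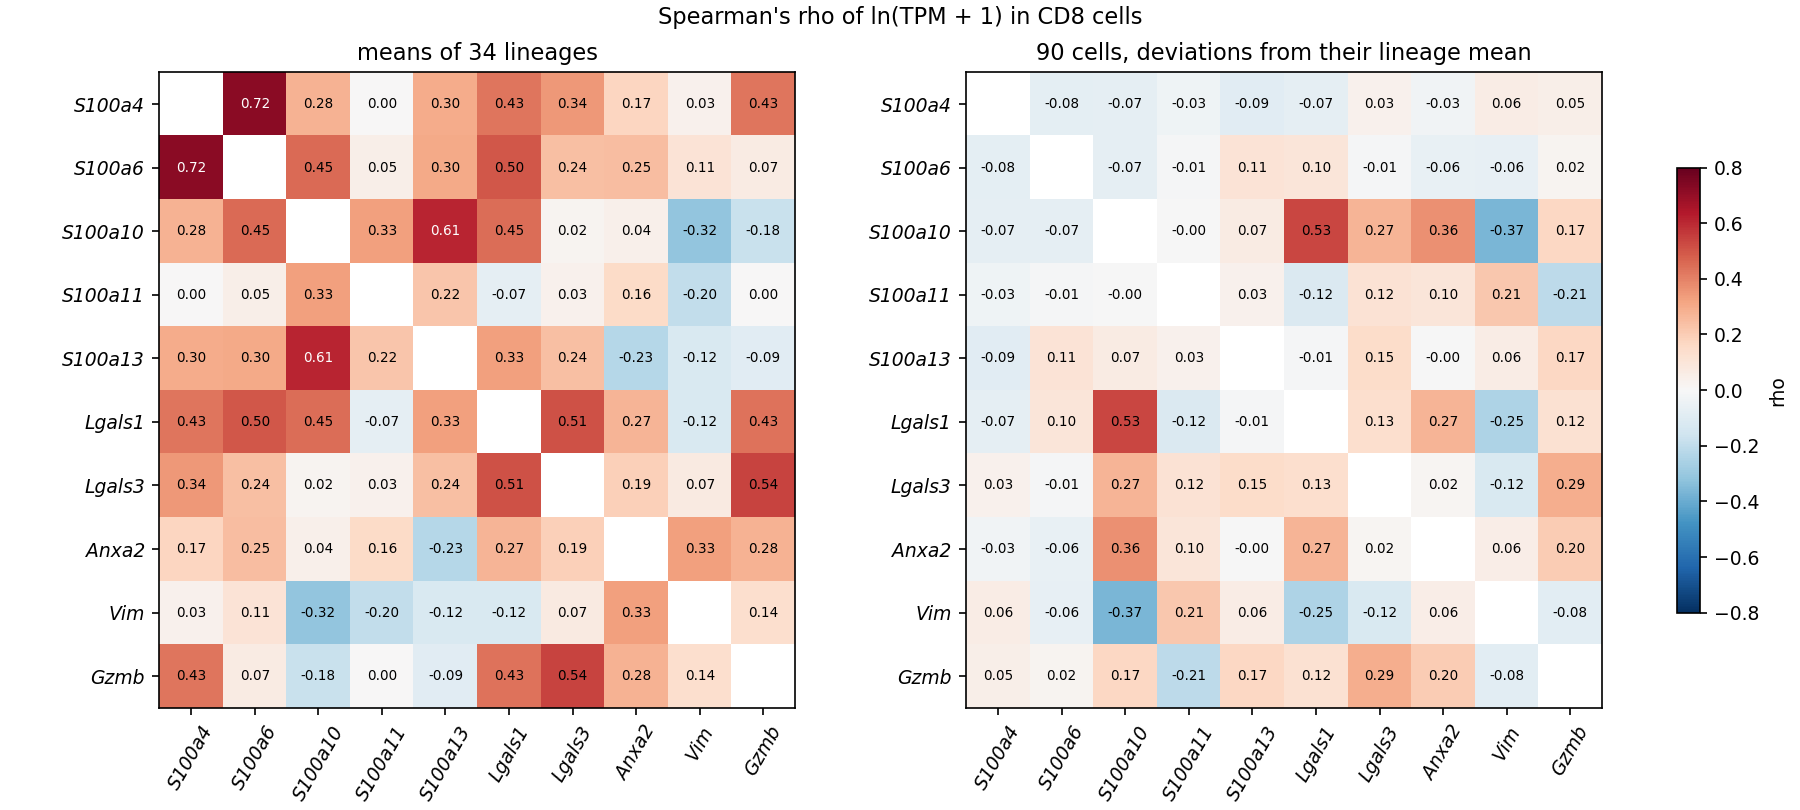
Spearman's rho of ln(TPM + 1) between members and with Gzmb in CD8 cells, for means of 34 lineages (left) and for 90 cells as deviations from their lineage mean (right). The value for S100a4 with S100a6 is 0.72 on the left and -0.08 on the right, and S100a10 with Lgals1 is 0.45 and 0.53.

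Lgals3, S100a4 and Lgals1 were the members that went with Gzmb over CD8 lineages. Spearman's rho was 0.54 for Lgals3 (SE 0.148, Pearson's r 0.46), 0.43 for S100a4 (SE 0.168, r 0.35) and 0.43 for Lgals1 (SE 0.172, r 0.27), with 0.45, 0.49 and 0.38 without the 2 lineages farthest from the median. Anxa2 had 0.28, Vim 0.14, S100a6 0.07, S100a11 0.00, S100a13 -0.09 and S100a10 -0.18. Each of these other members lay within 1.5 jackknife SE of 0. Taken as residuals on detected genes, S100a4 with Gzmb had 0.26, Lgals3 with Gzmb 0.47 and Lgals1 with Gzmb 0.51.

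All 42 CD8 cells with Lgals3 had Gzmb, beside 45 of the other 55. Of the 44 cells with S100a4, 42 had Gzmb, and of the cells without S100a4, 45 had Gzmb and 8 did not. Lineages with S100a4 in all cells had Gzmb means of 228 to 6829 TPM (median 2540), and those without it 6.54 to 3995 TPM (median 433.8). The ranges overlapped widely. The lineage of CD8_1, with the highest S100a4, had 0, 45.9, 349.9 and 516.2 TPM of Gzmb in its 4 cells. Within lineages, rho with Gzmb was 0.29 for Lgals3 and 0.05 for S100a4. Lineages at 0 in all cells, 8 for Lgals3 and 9 for S100a4, had no deviations in that gene and cannot inform these values.

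**Figure D4:**
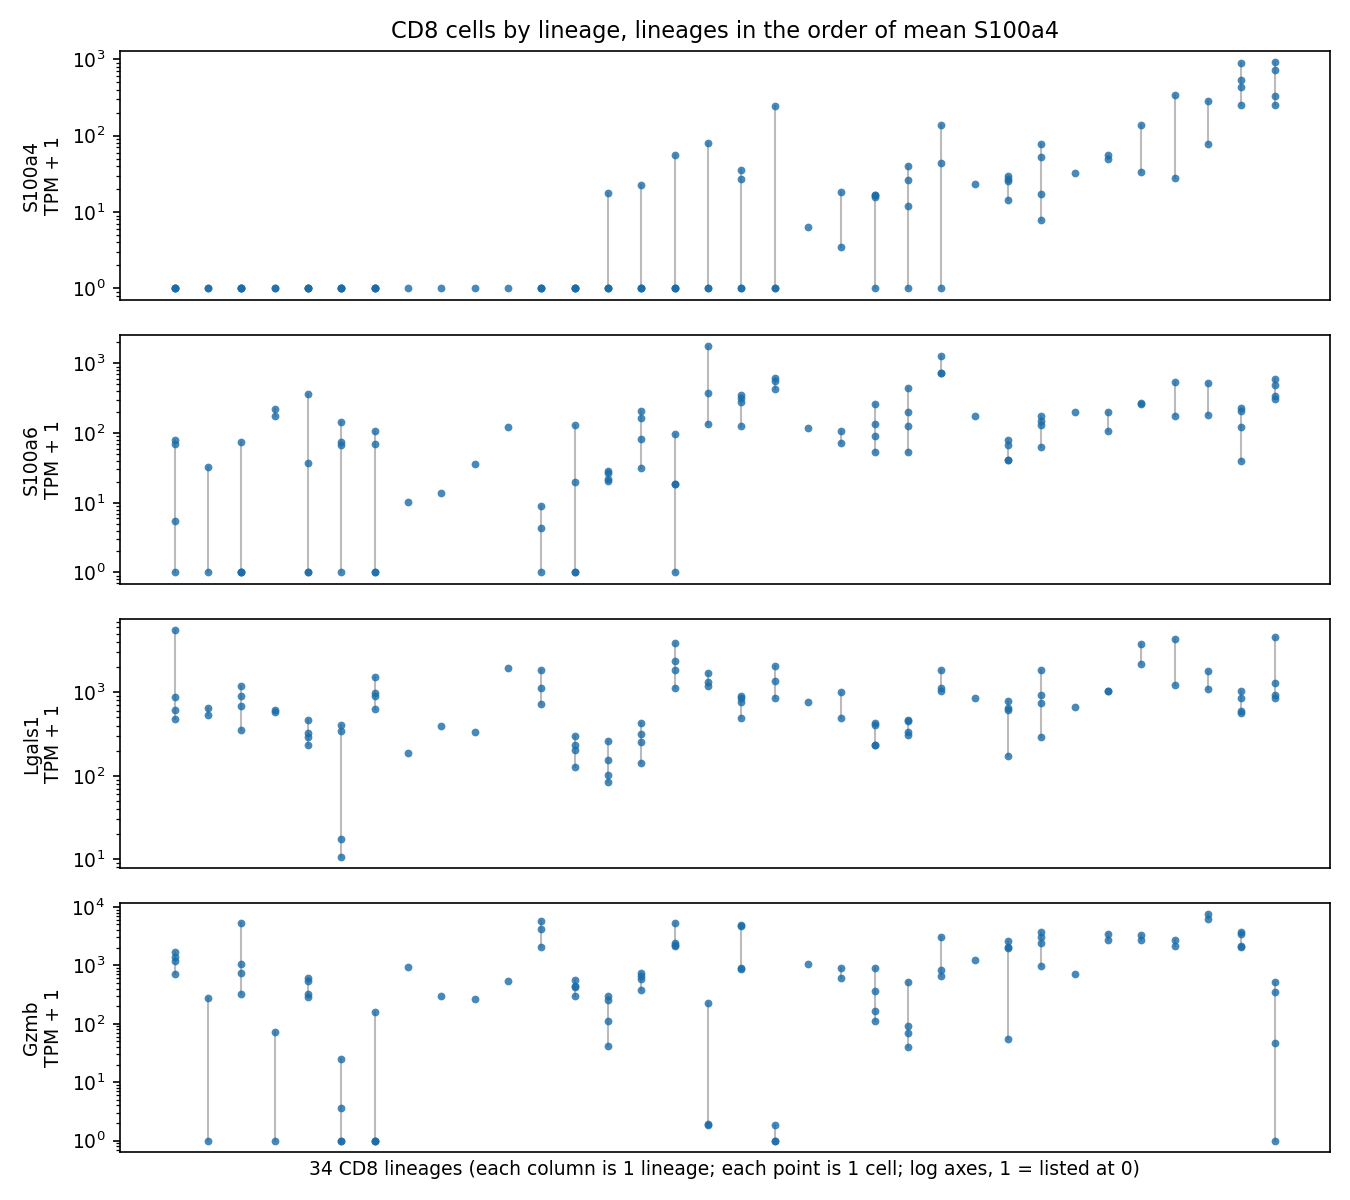
S100a4, S100a6, Lgals1 and Gzmb in the 97 CD8 cells, as TPM + 1 on log axes, with 1 column per lineage in the order of mean S100a4 and grey lines from the lowest to the highest cell of a lineage. Lineages on the left have S100a4 at 0 in all cells, and the 2 rightmost lineages have it between 247.9 and 916.7 TPM.

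Genes outside the group with the pattern most like S100a4 over CD8 lineages were Pilrb1 (rho 0.72), an immune receptor gene, Etfdh (0.67) of mitochondrial electron transfer, the alpha-tubulin gene Tuba4a (0.65), Plac8 (0.62) and the glutaredoxin gene Glrx (0.61). The nearest to S100a10 was Crip1 (0.78), a LIM-domain gene, to S100a11 the T-cell surface gene Cd7 (0.73), to Lgals1 Fkbp3 (0.88) and Edf1 (0.86), and to Lgals3 Mrpl15 (0.70) and Rhbdf2 (0.69). To S100a13 it was the T-cell adaptor gene Lime1 (0.70), to S100a6 AY074887 (0.62), to Anxa2 Phf20 (0.67) and to Vim the tRNA synthetase gene Hars (0.64). In L1210 lineages S100a4 lay nearest to Arl2 (0.80), and Lgals1 to Cds1 (0.81) and the actin regulator Coro1a (0.80).

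By role, 9 of 10 effector genes that passed the filter had a rho to S100a4 above 0 over CD8 lineages (median 0.29). The other was Ctsw (-0.22). Among naive and memory genes 2 of 11 did (median -0.07), where the median over all genes was 0.07. Co-expression and the relation to Gzmb, which is among the 10, took part in the choice of S100a4. These values are thus descriptions. How many of all genes lay above 0 was not counted, and the part of detection in these values was not tested. The chemokine gene Ccl5 (0.46), Gzmb (0.43), the transcriptional regulator gene Id2 (0.39) and Ly6c2 (0.38) led the effector genes, and Bach2 (-0.32), a repressor of effector genes, and the homing receptor gene Ccr7 (-0.23) were the lowest of the naive and memory genes. Of the actin and membrane cytoskeleton genes, 13 of 16 were above 0, with Pfn1 (0.52), Cfl1 (0.47), Crip1 (0.39) and Tmsb4x (0.38), all of which encode small proteins. The myosin gene Myh9, whose product S100A4 binds, had -0.11. For S100a6 the effector genes had a median rho of 0.07.

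Time since division, which took no part in the choice of the genes, was tested with limma on lineage means of ln(TPM + 1), with 31 CD8 lineages of 0.5 to 9.39 h and 26 L1210 lineages of 1.07 to 12.8 h. None of the 9 CD8 members passed an adjusted p of 0.05 (Benjamini-Hochberg over 9997 genes). S100a13 came nearest in CD8 cells, with 0.171 ± 0.0608 (SE) per hour on the ln scale, 95% interval 0.0483 to 0.293, p = 0.00738 in limma and adjusted p = 0.229, and over the 10 alternatives its adjusted p was 0.17 to 0.72. S100a4 had 0.0723 per hour (-0.204 to 0.348, adjusted p = 0.859) and S100a6 0.0625 (-0.166 to 0.291, adjusted p = 0.852). Vim had the narrowest interval, -0.0674 to 0.0633 per hour, and a missed threshold does not show that a level was constant. Over all genes 9 passed (0.09%), 4 up and 5 down, with 1294 at an unadjusted p under 0.05. That count was 0 to 18 with 1 lineage left out at a time. The median slope of -0.035 lies below the members' median of 0.0638.

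In L1210 cells none of 5 members passed, and none of the 10536 genes did either (0%), with 588 at an unadjusted p under 0.05 and 1 gene called when detected genes were a covariate. The intervals were narrower than in CD8 cells for all 5 members, for instance -0.0493 to 0.0311 per hour for S100a6 and -0.0524 to 0.139 for S100a4. The difference of the slopes (L1210 minus CD8) was called for 1 of 9160 genes (0.0109%) and for none of 5 members, with -0.161 per hour for S100a13 (SE 0.0892, adjusted p = 0.473 in limma) and -0.108 for Lgals1 (SE 0.072, adjusted p = 0.552). Slopes of 4 members in CD8 cells, S100a4, S100a6, S100a10 and Anxa2, changed sign without the 2 lineages farthest from the median time.

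**Figure D5:**
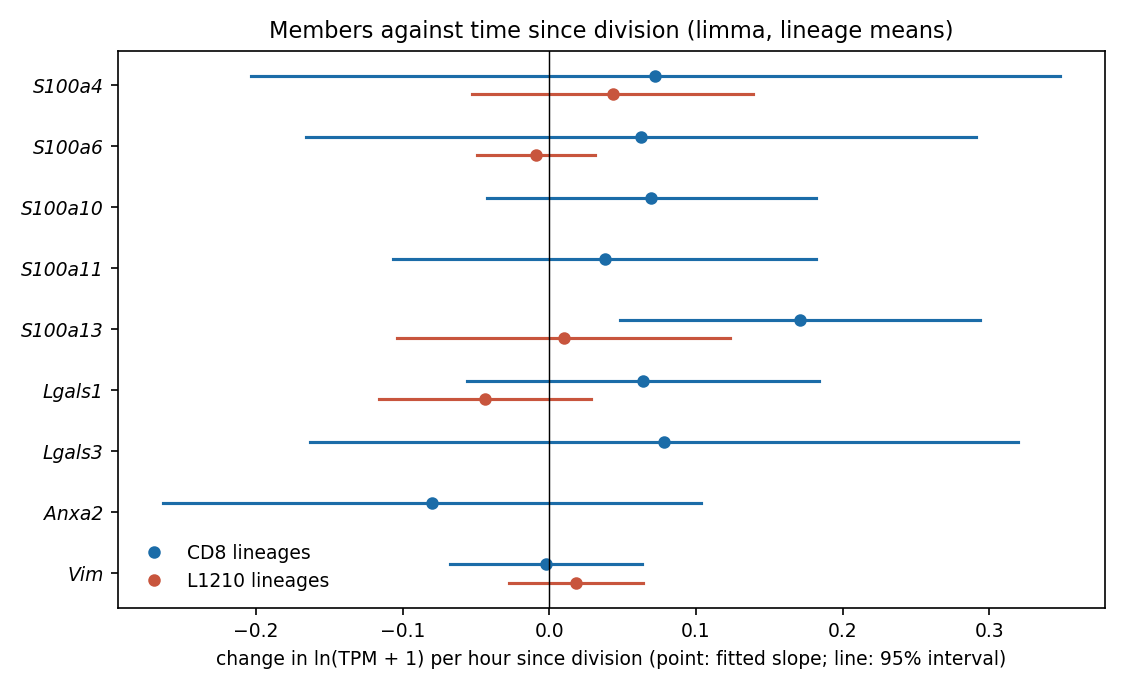
Fitted change in ln(TPM + 1) per hour since division (points) with 95% intervals (lines) from limma on lineage means, for 31 CD8 lineages in blue and 26 L1210 lineages in red. Of the 14 intervals, only that of S100a13 in CD8 cells (0.0483 to 0.293) lies away from 0, before adjustment for the genes tested.

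Among the fixed lists in CD8 cells, no gene passed in the other S100 genes (1 tested), annexins (5), galectins (3), binding partners (7), actin and membrane cytoskeleton (16), effector (10) or naive and memory (11) lists. Of the 10 mitosis genes 1 rose, the cyclin-dependent kinase gene Cdk1, with 0.263 ± 0.0547 per hour (limma, adjusted p = 0.0276). The giant scaffold gene Ahnak, whose product binds the S100A10 and annexin A2 complex, had -0.179 ± 0.0715 per hour (adjusted p = 0.278) and the annexin gene Anxa11 -0.188 ± 0.065 (adjusted p = 0.217). No listed gene passed in L1210 cells.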

How the data were processed

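The authors deposited 1 table of TPM for 23420 gene names in 194 single-cell libraries. Per the labels and the study's methods, TopHat2 and RSEM 1.2.3 were used with mm10 gene models, and each library sums to 1000000. Spreadsheet software had turned 27 names into dates, none a member, and 2 of these names occurred more than once. TPM are not counts, so no count model was used, and the table does not keep depth, which limits precision most for genes of low level.

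Doublets and libraries with under 1000 detected genes were left out. Values were taken as ln(TPM + 1), with a pseudocount of 1 TPM, and genes were kept when above 1 on this scale in over 10% of the cells of a type (9997 in CD8, 10536 in L1210 cells). Lineages were built from reciprocal sister and cousin labels. Time was fitted with limma 3.58.1 (eBayes with trend, R 4.3.3), 2-sided, on lineage means. The p-values measure the spread between lineages, which may share a mouse or culture. On simulated slopes the fit recovered 96.5% of 200 changed genes in CD8 and 91% in L1210 cells. Those slopes were large, the SD of the gene over lineages per SD of hours, with independent normal noise and no excess of zeros. The shares thus do not say how often smaller slopes, or those of members with many zeros, would be found. Spearman's rho, pair differences and levels were computed in Python 3.11.15 without tests. Members and gene lists were chosen with earlier results of these data known. Named beyond the members are the 5 genes nearest to S100a4 and the 2 nearest to each other member by rho, and up to 4 genes per list by rho to S100a4, and family genes named for their levels or slopes were chosen after their values were seen. Alternatives covered pseudocounts, filters, minimum detected genes, Rn45s removal, detected genes as a covariate, time, single cells and leaving out lineages, and leaving out each lineage in turn or the cell L1210_8 was chosen after seeing the data.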

Additional observations from a re-analysis of the deposited data

Results flagged for a closer look

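Libraries that no comparison used held some members above the highest value of any cell used of the same type. Of the 2 L1210 doublets, 1 held S100a10 at 237.2 TPM, where the highest of 81 L1210 cells was 15.3 TPM. Of the 4 CD8 doublets, 1 held Anxa1 at 18.62 TPM, against at most 9.01 TPM in 97 cells. Among the 5 L1210 libraries with under 1000 detected genes, S100a4 reached 2687.87 TPM, S100a13 1863.01 TPM and Lgals1 3459.91 TPM, each in 1 library and listed at 0 in the other 4. Among the 5 such CD8 libraries S100a10 reached 4399.48 TPM.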

How the results depend on the processing

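No paired analysis was possible because the numbers in the titles only name cells and do not tie a CD8 cell to an L1210 cell. Of the members called for a difference between the cell types, the 4 higher in CD8 cells became 3 with a pseudocount of 10 TPM and with the median over cells, without Lgals3, and the count lower was 2 under all 7 alternatives. No member was called for time under any alternative or without any single lineage. The likeness of S100a13 in CD8 cells turned to 3.33% with a pseudocount of 0.1 TPM, 1.12% without Rn45s, 1.88% as residuals on hours and 4.31% with sisters only, and rho of S100a11 and Vim to 0.0733 without single-cell lineages. Over single cells, rho of S100a4 and S100a6 was 0.466 in CD8 and 0.501 in L1210 cells, and rho of S100a4 and Gzmb was 0.256 as residuals on detected genes. The CD8 count of genes called for time, 9, became 5 with a pseudocount of 0.1 TPM, 3 with no gene filter, 25 with at least 4000 detected genes, 17 with detected genes as a covariate, 23 with cells and 1 without the 2 farthest lineages, and the L1210 count became 1 with detected genes as a covariate. The count for the difference of slopes, 1, became 2 with a pseudocount of 10 TPM and with the covariate, 3 with at least 4000 detected genes and with cells, and 0 without Rn45s or the 2 farthest lineages. Leaving out 1 lineage at a time gave 0 to 18 genes in CD8 cells (without the lineage of CD8_1 0, CD8_87 1, CD8_36 2, CD8_49 4, CD8_5 5, CD8_75 14 and CD8_77 18), 0 to 2 in L1210 cells (without that of L1210_8 2, of L1210_11 1) and 0 to 4 for the difference (4 without that of CD8_36, and 0 without that of CD8_1, CD8_49, CD8_5, CD8_69, CD8_71, L1210_11, L1210_12 or L1210_78). The causes were not tested. Of the other values, 64 of 70 differences between the types moved by less than their spread over lineages, and 305 of 332 rho between members by less than their jackknife SE. Of the likeness values, 113 of 118 kept their sign and moved by less than the SD over the different members. That SD is a wide limit and not the spread of a single gene's value.

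Slopes that changed sign, all far from the threshold, were in CD8 cells Vim (0.00833 with at least 4000 genes, 0.00708 with the covariate) and, without the 2 farthest lineages, S100a6 (-0.0878), S100a10 (-0.00318), Anxa2 (0.0152) and S100a4 (-0.0529). In L1210 cells they were S100a13 (-0.0112 with 0.1 TPM, -0.0266 with cells, -0.0166 without the 2 farthest lineages, -0.183 within the CD8 range of times), S100a6 (0.00324 with at least 4000 genes, 0.000264 without Rn45s, 0.0112 within the CD8 range) and Vim (-0.0454 within the CD8 range). For the difference of slopes, S100a6 (0.0848) and S100a4 (0.0842) turned without the 2 farthest lineages. With pseudocounts of 0.1 and 10 TPM the share of genes called higher in CD8 cells was 5.64% and 1.11%, and lower 25.7% and 1.63%.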

Other observations

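In the 4 CD8 doublets, the members other than S100a4, S100a13, Lgals3 and Anxa1 were above 0 in every library, with Vim at 1206 to 2523 TPM and Lgals1 at 673.5 to 1118 TPM. S100a4 was above 0 in 1 of the 4, at 113 TPM. In the 5 CD8 libraries with under 1000 detected genes, S100a4, S100a11, S100a13, Lgals3, Anxa1, Anxa2 and Vim were all listed at 0.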
